A study of Homo sapiens with 18 samples.

Results

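SYTL1, PALM3, IL2RB and SCN2B are 4 genes that stood low in U2OS cells carrying wild-type DNMT3A and higher in the cells set against them. They were chosen from the 25296 genes of the deposited table for large falls in untreated wild-type DNMT3A cells against the empty vector or the mutant, with no fixed threshold. The untreated values of these genes are therefore a description with no test, and tests are given only for the cytarabine-treated libraries, which the choice did not use. All 4 were among the 18226 genes that passed the filter on low counts. U2OS cells were established from a human osteosarcoma. Sequenced RNA came from 3 lines derived from them: EV with the MigR1 retroviral vector alone, WT with wild-type DNMT3A, and MUT with DNMT3A mutated at 1 arginine. The mutation is R882C in the series text and R882H in the sample labels, so the line is called the mutant here. Each line was sampled untreated, which the series text calls vehicle, and after 24 h with 10 µM cytarabine (Ara-C), in biological triplicates, which gave 6 groups and 18 libraries. Each construct was present in 1 derived line, so the construct and other differences between the lines cannot be told apart, and the EV line keeps its own DNMT3A.

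DNMT3A is a de novo DNA methyltransferase. It places methyl groups on cytosines that are followed by guanines, and such methylation at promoters often accompanies low transcription. The arginine changed in the mutant lies in the catalytic domain and is the residue of DNMT3A most often mutated in acute myeloid leukaemia. Cytarabine is a drug against that disease, and its incorporation into DNA stalls replication. SYTL1 encodes a synaptotagmin-like protein that binds the small GTPase RAB27A on secretory vesicles. PALM3 encodes a paralemmin, a lipid-anchored protein of the plasma membrane. IL2RB encodes the beta chain of the receptors for interleukin 2 and interleukin 15 and is best known in lymphocytes. SCN2B encodes an auxiliary beta subunit of voltage-gated sodium channels and is best known in neurons and heart.

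The authors' table, made on hg38, places all 4 as protein-coding genes on different chromosomes. SYTL1 lies at chr1:27342020-27353938 on the plus strand. PALM3 lies at chr19:14053365-14059160, IL2RB at chr22:37125838-37175055 and SCN2B at chr11:118161951-118176674, all on the minus strand. Each position overlaps the gene of the same symbol in GENCODE version 44. In that annotation a long noncoding gene lies over IL2RB on the opposite strand, with 0 exonic bases in common.

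DNMT3A acts on CG dinucleotides, so the 250 bases before the RefSeq start site (GRCh38.p14) are shown with every CG in capitals, 5′ to 3′ on the strand of the gene. The promoter table had entries for 3 of the 4 genes, and IL2RB is named only. The windows are chr1:27341772-27342021 for SYTL1 (plus strand), chr19:14062077-14062326 for PALM3 (minus strand) and chr11:118176640-118176889 for SCN2B (minus strand).
SYTL1: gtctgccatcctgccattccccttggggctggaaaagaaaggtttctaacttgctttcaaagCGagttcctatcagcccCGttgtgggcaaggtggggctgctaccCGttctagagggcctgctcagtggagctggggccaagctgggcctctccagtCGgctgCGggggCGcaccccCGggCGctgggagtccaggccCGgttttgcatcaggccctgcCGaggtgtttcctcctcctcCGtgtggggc
PALM3: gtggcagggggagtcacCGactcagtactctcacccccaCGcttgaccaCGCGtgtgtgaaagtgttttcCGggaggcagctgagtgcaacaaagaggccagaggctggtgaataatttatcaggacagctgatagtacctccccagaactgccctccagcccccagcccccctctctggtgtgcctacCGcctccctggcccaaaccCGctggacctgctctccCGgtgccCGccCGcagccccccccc
SCN2B: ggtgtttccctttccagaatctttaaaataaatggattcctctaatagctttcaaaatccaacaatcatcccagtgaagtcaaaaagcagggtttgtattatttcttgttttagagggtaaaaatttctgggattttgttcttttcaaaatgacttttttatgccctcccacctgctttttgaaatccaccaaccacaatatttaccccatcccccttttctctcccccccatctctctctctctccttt
The SYTL1 window holds 11 CG and the PALM3 window 10, both at 64% G and C. Over the 35116 windows of the same length in the table, the median was 11 CG and 58% G and C. The SCN2B window holds 0 CG at 38% G and C. At least 1 CG was present in 93.9% of all windows, so 6.06% held none. A start site used in U2OS may lie elsewhere. The RefSeq start of PALM3 is 2916 bases upstream of the 5′ end of the gene in the authors' table. For SYTL1 and SCN2B the RefSeq start and that 5′ end were 2 and 35 bases apart. DNA methylation was not analysed here, and the letters say nothing of whether these sites are methylated.

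Library totals ran from 15.4 to 21.9 M estimated counts. Levels are given as CPM, estimated counts per M (1000 times 1000) of the library after TMM scaling, and 1 count was worth 0.0428 to 0.0629 CPM. The spread between replicates differed among groups. The biological coefficient of variation was 0.216 in untreated MUT and 0.133 in treated EV, and 0.0398 to 0.0696 in the other groups. DNMT3A itself was at 26.9 ± 0.662 CPM in untreated EV, 133 ± 5.17 in untreated WT and 456 ± 185 in untreated MUT (SD, n = 3 each). With cytarabine it was at 47.4 ± 2.08, 176 ± 8.68 and 524 ± 8.71 CPM in EV, WT and MUT (SD, n = 3 each). Both DNMT3A lines therefore carried more of its RNA than EV, and the MUT line carried more than the WT line. The untreated MUT libraries ranged from 254 to 615 CPM. Amount and mutation cannot be told apart in the comparisons of WT with MUT.

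SYTL1 was measured at 4.97, 3.62 and 5.16 CPM in the untreated EV libraries. In untreated WT it was at 1.03, 0.37 and 0.55 CPM, and in untreated MUT at 10.4, 7.3 and 10.9 CPM. All 3 lines stood apart, with WT lowest and MUT highest. With cytarabine SYTL1 was at 15.4, 10.3 and 12.5 CPM in EV, 3.15, 2.32 and 2.32 CPM in WT, and 27.9, 29.4 and 31.5 CPM in MUT. The order of the lines was the same and again no line overlapped another, although every treated WT library lay above every untreated WT library.

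PALM3 was at 6.95, 8.24 and 5.47 CPM in untreated EV. It was at 0.638, 0.688 and 0.935 CPM in untreated WT and at 8.27, 8.74 and 7.48 CPM in untreated MUT. EV and MUT overlapped, and WT lay below both. The treated EV libraries were at 8.31, 9.3 and 8.77 CPM, the treated WT libraries at 0.464, 0.486 and 0.532 CPM and the treated MUT libraries at 11.6, 8 and 8.8 CPM. The 6 WT libraries thus all stayed under 1.0 CPM, with the treated ones lowest. They rest on 13, 13 and 17 counts untreated and 10, 9 and 11 treated, so that counting error weighs on these values.

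IL2RB was at 18.7, 21.6 and 18.9 CPM in untreated EV, 2.75, 2.22 and 2.2 CPM in untreated WT and 26.5, 26.7 and 20.2 CPM in untreated MUT. WT lay below both other lines, which overlapped. Under cytarabine the values were 38.1, 41.3 and 37.7 CPM in EV, 5.43, 7.73 and 7.45 CPM in WT and 59.8, 56.3 and 58.6 CPM in MUT. There the 3 lines no longer overlapped, and MUT was the highest.

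SCN2B was at 4.56, 4.5 and 4.43 CPM in untreated EV. In untreated WT it was at 0.245, 0.476 and 0.165 CPM, which rest on 5, 9 and 3 counts, so that counting error weighs on these values. In untreated MUT it was at 2.66, 4.34 and 2.17 CPM, between the 2 other lines with no overlap. The treated libraries gave 8.21, 8.49 and 10.4 CPM in EV, 1.67, 1.13 and 0.677 CPM in WT and 7.47, 8.33 and 8.02 CPM in MUT. Treated EV and MUT overlapped and treated WT lay below both.

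**Figure D1:**
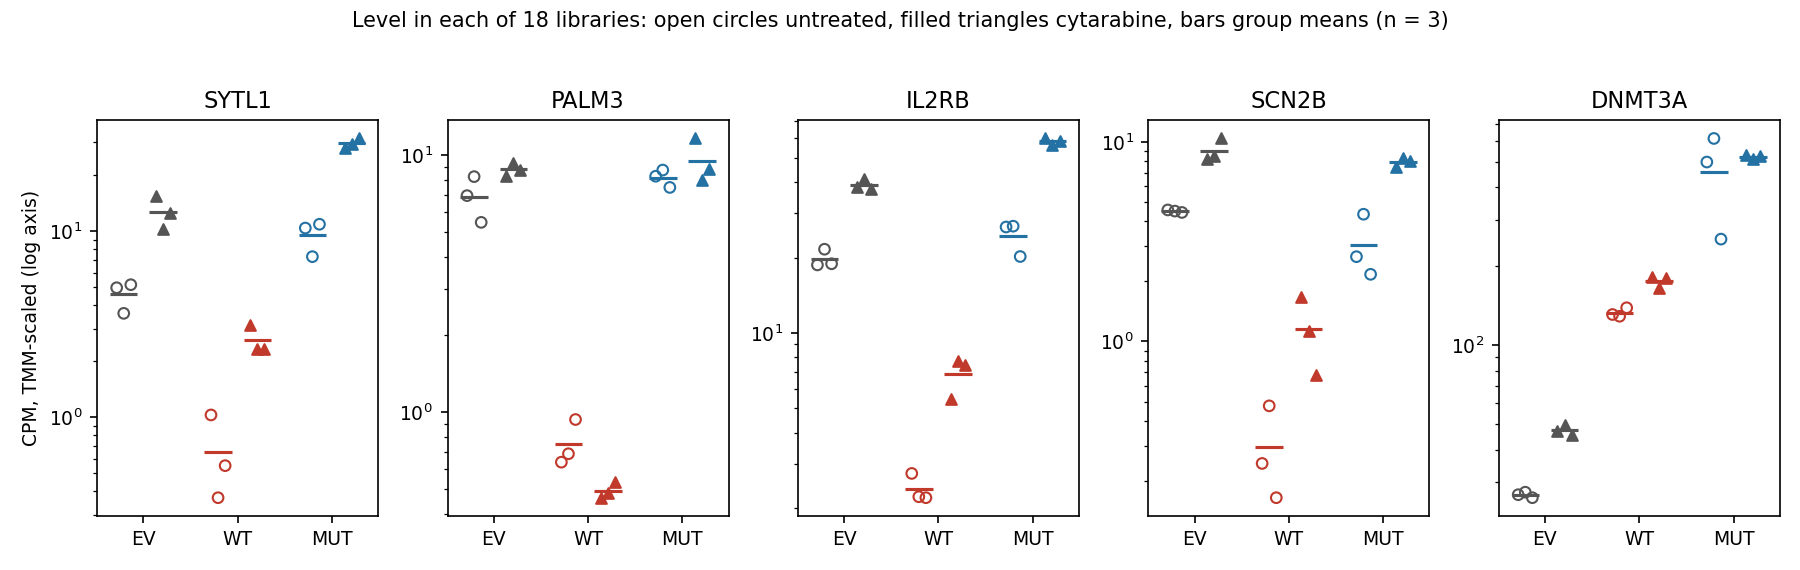
Level of each of the 4 genes and of DNMT3A in every library (CPM, log scale), by line and treatment; each point is 1 library and the bar is the group mean. The WT libraries of the 4 genes sit below those of EV and MUT with either treatment, while DNMT3A is lowest in EV and highest in MUT.

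The treated libraries tested whether the WT line also held these genes low where they had not been used for the choice. All 4 genes were lower in treated WT than in treated EV, a call that 9.12% of all tested genes received in that direction. P-values are from the quasi-likelihood F test of edgeR, adjusted over all tested genes by Benjamini and Hochberg. SYTL1 was at 20.4% of the EV mean (log2 -2.29, SE 0.212, edgeR adjusted p = 4.14e-07). PALM3 differed most, at 5.62% of EV, a 17.6-fold difference in the fit (log2 -4.13, SE 0.221, edgeR adjusted p = 3.19e-10). In the authors' normalized table, which adds 1 to each scaled count, its log2 difference was -2.5. The treated WT level of PALM3 rests on 10, 9 and 11 counts. IL2RB was at 17.6% of EV (log2 -2.51, SE 0.126, edgeR adjusted p = 1.21e-10). SCN2B was at 12.8% (log2 -2.95, SE 0.273, edgeR adjusted p = 4.04e-07). For each of the 4 genes, all 3 WT libraries lay below all 3 EV libraries, which held for 18.1% of tested genes. In a bulk library, fewer cells that express a gene and less RNA per cell cannot be told apart.

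Against treated MUT, the 4 genes were again all lower in treated WT, where 10.4% of tested genes were called lower. The comparisons of WT with EV and of WT with MUT share the WT libraries. The log2 fold change was -4.24 for PALM3 (18.9-fold, SE 0.22, edgeR adjusted p = 2.44e-10) and -3.5 for SYTL1 (SE 0.21, edgeR adjusted p = 1.04e-09). It was -3.09 for IL2RB (SE 0.126, edgeR adjusted p = 6.6e-12) and -2.76 for SCN2B (SE 0.272, edgeR adjusted p = 8.3e-07). For each of the 4 every WT library lay below every MUT library, as for 22.7% of tested genes.

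The 4 genes differed from each other between treated MUT and treated EV. SYTL1 and IL2RB were higher in MUT, a call made for 6.85% of tested genes, and no MUT library of either overlapped an EV library (17.1% of tested genes stood above EV in this way). SYTL1 rose by 1.21 on the log2 scale (SE 0.179, edgeR adjusted p = 0.000169) and IL2RB by 0.58 (SE 0.109, edgeR adjusted p = 0.00148). PALM3 and SCN2B were not called. Their log2 differences were 0.11 for PALM3 (SE 0.158, edgeR adjusted p = 0.725) and -0.19 for SCN2B (SE 0.228, edgeR adjusted p = 0.655). A p above the threshold does not show that the lines were alike. For PALM3 the sign rests on 1 library: without MUT cytarabine replicate 1, at 11.6 CPM, the log2 difference was -0.0636 (edgeR adjusted p = 0.865).

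**Figure D2:**
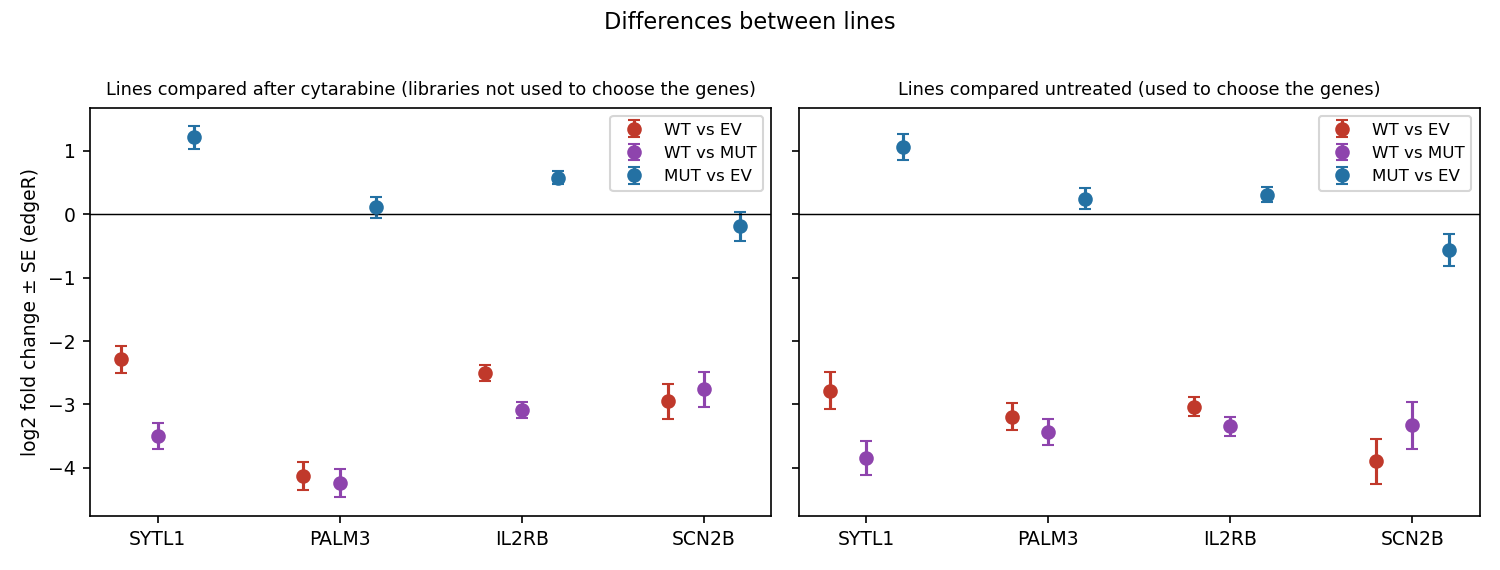
Log2 fold change ± SE between lines for the 4 genes, untreated and with cytarabine, from the same fit of 18 libraries. The WT against EV and WT against MUT values of all 4 genes lie below -2, while MUT against EV is near 0 for PALM3 and SCN2B with cytarabine and above 1 for SYTL1 with either treatment.

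The untreated differences are those on which the genes were chosen. In untreated WT against EV, where 7.36% of tested genes were called lower, the log2 fold changes were -2.78 for SYTL1 (SE 0.291), -3.19 for PALM3 (SE 0.213), -3.04 for IL2RB (SE 0.15) and -3.90 for SCN2B (SE 0.353). Every WT library of each gene lay below every EV library, as for 21.5% of tested genes. From the lowest of all 18226 tested genes these were ranks 65, 41, 49 and 19. In untreated WT against MUT, where 11.7% were called lower, the values were -3.84 for SYTL1 (SE 0.27), -3.43 for PALM3 (SE 0.21), -3.35 for IL2RB (SE 0.148) and -3.33 for SCN2B (SE 0.365), at ranks 18, 28, 32 and 33. All WT libraries lay below all MUT libraries for each gene, and for 16.3% of tested genes. That comparison called 21.2% of all tested genes in either direction, of which 44.9% were higher in WT with TMM scaling and 34.6% with the RLE size factors of edgeR. Between untreated MUT and EV, the differences were 1.06 for SYTL1 (SE 0.206) and -0.57 for SCN2B (SE 0.256), both without overlap (14.3% of tested genes stood above EV and 16% below it in this way), and the libraries of PALM3 and IL2RB overlapped. In the treated comparison of WT with EV the ranks from the lowest were 138 for SYTL1, 23 for PALM3, 93 for IL2RB and 53 for SCN2B.

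The genes also differed in how their levels stood with and without cytarabine. These changes use the untreated libraries and are given with no test. SYTL1 was higher with the drug in every line, by 1.48 on the log2 scale in EV (SE 0.202), 1.97 in WT (SE 0.308) and 1.63 in MUT (SE 0.184). For IL2RB the differences were 0.98 in EV (SE 0.115), 1.51 in WT (SE 0.163) and 1.25 in MUT (SE 0.113). For SCN2B they were 1.01 (SE 0.239), 1.95 (SE 0.406) and 1.38 (SE 0.247) in the same order. In these 3 genes every treated library lay above every untreated one of its line, which also held for 30.6% of tested genes in EV, 33.5% in WT and 32.1% in MUT. The treated WT level still lay below that of untreated EV. PALM3 did not follow them. Its log2 difference was 0.35 in EV (SE 0.163), -0.60 in WT (SE 0.293) and 0.21 in MUT (SE 0.159), with overlap in MUT. The WT value rests on 13, 13 and 17 untreated and 10, 9 and 11 treated counts, so that counting error weighs on it. The difference between the EV and WT changes was not tested.

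**Figure D3:**
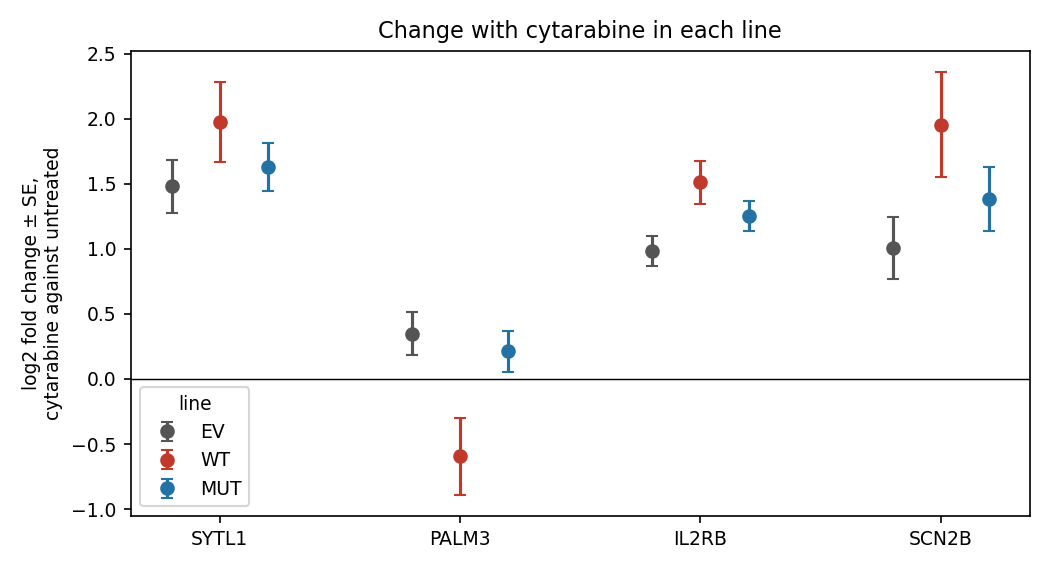
Log2 fold change ± SE of cytarabine-treated against untreated libraries in each line, for the 4 genes. SYTL1, IL2RB and SCN2B lie above 0 in all 3 lines, and PALM3 lies above 0 in EV and MUT and at -0.60 in WT.

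Levels were compared between the 4 genes only after division by the exonic length in GENCODE, which was 5.58 kb for SYTL1, 2.79 kb for PALM3, 7.28 kb for IL2RB and 5.35 kb for SCN2B. The authors' table ends PALM3 at 14059160 and starts IL2RB at 37125838, where GENCODE has 14062076 and 37118666. These lengths may therefore include exons that the counts do not cover, which limits the order below. In untreated EV the order of CPM per kb was IL2RB (2.71 ± 0.218), PALM3 (2.47 ± 0.494), SCN2B (0.839 ± 0.0121) and SYTL1 (0.82 ± 0.15; SD, n = 3 each). The first pair differed by less than its spread, and so did the last pair. In treated MUT, IL2RB was at 7.99 ± 0.246 CPM per kb, SYTL1 at 5.3 ± 0.328, PALM3 at 3.38 ± 0.669 and SCN2B at 1.48 ± 0.0814 (SD, n = 3 each), with each neighbour in that order apart by more than the SD of either. In untreated WT the levels of IL2RB (0.328 ± 0.0424) and PALM3 (0.269 ± 0.0569) differed by about the SD of PALM3, and both lay above SYTL1 (0.116 ± 0.0611) and SCN2B (0.0551 ± 0.0303 CPM per kb; SD, n = 3 each). With cytarabine, WT cells held IL2RB at 0.943 ± 0.172, SYTL1 at 0.466 ± 0.086, SCN2B at 0.217 ± 0.0928 and PALM3 at 0.177 ± 0.0124 CPM per kb (SD, n = 3 each), and the last pair differed by less than the SD of SCN2B.

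The log2 CPM of the 4 genes over the 18 libraries was compared pair by pair as a description. Pearson's r was highest for SYTL1 and IL2RB (0.963), then for IL2RB and SCN2B (0.95), and lowest for SYTL1 and PALM3 (0.81). The points share lines, treatments and libraries. Among 13681 genes, those whose log2 CPM averaged at least 1, the nearest to SYTL1 were TUBB2B (r = 0.974), which encodes a beta-tubulin, MMP2 (0.963), a matrix metalloproteinase, and IL2RB itself. TUBB2B was at 68.6 ± 0.978 CPM in untreated EV, 35.2 ± 0.653 in WT and 110 ± 9.44 in MUT (SD, n = 3 each), the order of lines that SYTL1 had. Nearest to PALM3 were OR51B5 (0.977), an olfactory receptor gene, C6orf132 (0.971) and KRT17 (0.968), a keratin. OR51B5 was at 14.4 ± 1.41 CPM in treated EV, 4.27 ± 0.575 in WT and 17 ± 1.39 in MUT (SD, n = 3 each). Nearest to IL2RB were GALNT14 (0.98), a glycosyltransferase, COL16A1 (0.98), a collagen, and LGALS3BP (0.973), a secreted glycoprotein that binds galectins. Nearest to SCN2B were CDA (0.961), the cytidine deaminase that also deaminates cytarabine, NES (0.958), an intermediate filament protein, and LRRC15 (0.958), a leucine-rich repeat membrane protein. CDA was at 11.7 ± 1.34 CPM in treated EV, 2.63 ± 0.281 in WT and 9.43 ± 1 in MUT (SD, n = 3 each). These likenesses depend on the measure, since 2 of the 12 genes, MMP2 and GALNT14, were also among the 3 nearest by Spearman's rho.

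The genes beside the 4 on their chromosomes were read to see how far the low level in WT reached, using the 3 nearest tested genes on each side. Against EV, with 7.36% of tested genes called lower untreated and 9.12% treated, the neighbours differed from locus to locus. Beside IL2RB on chromosome 22, RAC2, which lies 50.2 kb away, was at 35.4 ± 1.93 CPM in untreated EV, 17.3 ± 1.35 in WT and 53.8 ± 6.98 in MUT (SD, n = 3 each). It was lower in WT against EV by log2 -1.04 untreated (SE 0.0862, edgeR adjusted p = 1.16e-07) and -0.76 treated (SE 0.0824, edgeR adjusted p = 3.22e-06). Against MUT its values were -1.64 untreated (edgeR adjusted p = 1.75e-10) and -1.02 treated (edgeR adjusted p = 6.32e-08). CYTH4, a guanine exchange factor for ARF GTPases at 107 kb, was lower in WT than in EV by log2 -1.3 untreated (edgeR adjusted p = 0.00285) and -1.85 treated (edgeR adjusted p = 2.59e-06). It was also lower in treated MUT than in EV (-0.94, edgeR adjusted p = 0.00222), and in WT against MUT its values were -0.67 untreated (edgeR adjusted p = 0.164) and -0.91 treated (edgeR adjusted p = 0.00303). C1QTNF6, the nearest at 5.11 kb, was lower in WT untreated (log2 -0.71 against EV, edgeR adjusted p = 0.00654). With cytarabine it was not called against EV (-0.39, edgeR adjusted p = 0.08), and its call against MUT (-0.59, edgeR adjusted p = 0.00691) was lost without WT cytarabine replicate 2 (-0.464, edgeR adjusted p = 0.0523). On the other side of IL2RB, MPST, KCTD17 and TMPRSS6 had log2 fold changes of -0.51 to 0.23 in WT against EV and MUT (edgeR adjusted p of 0.264 or more), and TMPRSS6 had a mean of at most 0.49 CPM in every group.

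Beside SCN2B on chromosome 11, the nearest gene was SCN4B, at 9.06 kb, which encodes another beta subunit of sodium channels. SCN4B was at 4.15, 4.62 and 5.84 CPM in untreated EV, 2.75, 1.96 and 1.54 CPM in WT and 5.67, 5.35 and 3.94 CPM in MUT. With cytarabine it was at 27.9, 30.2 and 28.8 CPM in EV, 18, 13.9 and 17.8 CPM in WT and 34.7, 30.2 and 29.7 CPM in MUT. WT was thus the lowest line without overlap at either treatment, although SCN4B in treated WT lay above its untreated EV level, which was not so for SCN2B. The log2 fold change of SCN4B in WT was -1.21 against EV untreated (SE 0.202, edgeR adjusted p = 0.000426) and -0.81 treated (SE 0.142, edgeR adjusted p = 0.00058). Against MUT it was -1.25 untreated (edgeR adjusted p = 0.00021) and -0.93 treated (edgeR adjusted p = 0.000113). CD3D, a T cell receptor chain 162 kb away, was lower in WT against MUT (log2 -1.77 untreated, edgeR adjusted p = 0.000461; -1.46 treated, edgeR adjusted p = 0.000288). Against EV its values were 0.12 and -0.28 (edgeR adjusted p = 0.89 and 0.497). FXYD6, a regulator of the sodium pump at 284 kb, was lower in treated WT against EV (log2 -0.66, edgeR adjusted p = 0.00161). It was lower in untreated MUT than in EV as well (-0.62, edgeR adjusted p = 0.00491), and in WT against MUT its values were 0.09 untreated (edgeR adjusted p = 0.695) and -0.34 treated (edgeR adjusted p = 0.08). IL10RA, MPZL3 and MPZL2 were not called in WT against EV or MUT at either treatment.

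Beside SYTL1 on chromosome 1, MAP3K6, a kinase gene on the opposite strand 1.25 kb away, had log2 fold changes in WT against EV of -0.23 untreated (SE 0.0896, edgeR adjusted p = 0.104) and 0.05 treated (SE 0.0874, edgeR adjusted p = 0.751). Against MUT MAP3K6 was lower in WT, by log2 -0.49 untreated (edgeR adjusted p = 0.000672) and -0.42 treated (edgeR adjusted p = 0.00173). WDTC1 (-0.33, edgeR adjusted p = 0.00849) and WASF2 (-0.31, edgeR adjusted p = 0.0161) were also lower in treated WT than in MUT. Thus 3 of the 6 neighbours of SYTL1 were called lower there, where 10.4% of all tested genes were called lower. The call on WASF2 against MUT was lost without MUT cytarabine replicate 1 (-0.305), WT cytarabine replicate 1 (-0.307) or WT cytarabine replicate 2 (-0.298). In treated WT against EV, WDTC1 (-0.05, edgeR adjusted p = 0.758) and WASF2 (-0.02, edgeR adjusted p = 0.896) were not called either. Treated MUT was higher than EV for MAP3K6 (log2 0.47), WASF2 (0.29) and WDTC1 (0.28), a call made for 6.85% of tested genes. For WDTC1 and WASF2 that call was lost in 3 and 5 of 26 alternative settings. The pseudogene ACTG1P20 had a mean of at most 0.45 CPM in every group. ACTG1P20, TMEM222 and GPR3 were not called in WT against EV or MUT at either treatment. Beside PALM3 on chromosome 19, IL27RA, a cytokine receptor gene on the opposite strand 0.148 kb away, was lower in untreated WT than in EV by log2 -0.50 (SE 0.0775, edgeR adjusted p = 0.000205). It was also lower in untreated MUT than in EV (log2 -0.40, edgeR adjusted p = 0.00122), where 10% of tested genes were called lower, while the PALM3 libraries of these lines overlapped. The treated call of IL27RA against EV (log2 -0.24, edgeR adjusted p = 0.0384) was lost in 14 of 26 alternative settings, with an adjusted p of up to 0.218 without WT cytarabine replicate 2 (-0.168). In WT against MUT its values were -0.10 untreated (edgeR adjusted p = 0.402) and 0.21 treated (edgeR adjusted p = 0.06). The other neighbours of PALM3 (DCAF15, RFX1, EEF1DP1, MISP3 and SAMD1) were not called in WT against EV or MUT at either treatment.

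**Figure D4:**
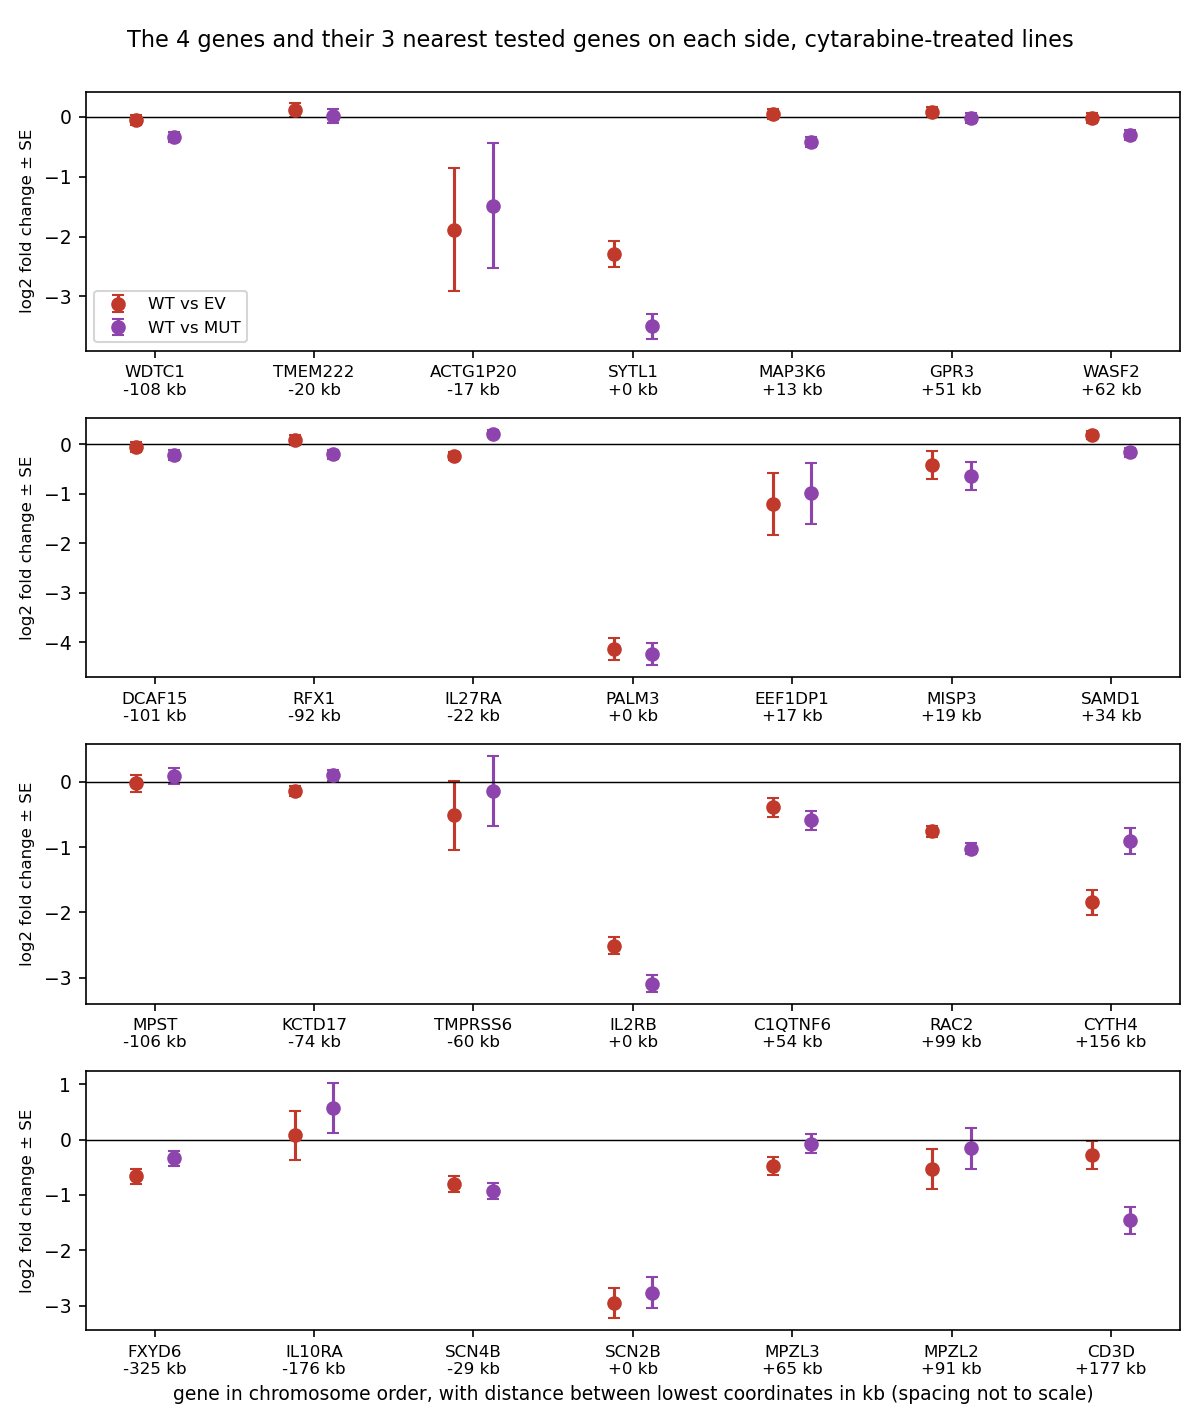
Log2 fold change ± SE of WT against EV and of WT against MUT with cytarabine, for the 4 genes and their 3 nearest tested genes on each side, in chromosome order with the distance between lowest coordinates in kb. Each of the 4 genes lies below -2 in both comparisons and every neighbour above -2, with wide error bars for the pseudogenes ACTG1P20 and EEF1DP1.

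Genes that work with the 4 were then counted by list. Of 11 genes of RAB27 effectors and GTPases, which dock and prime secretory vesicles, 4 were lower and 1 was higher in untreated WT against EV. In that comparison 11.7% of all tested genes were called in either direction. With cytarabine 3 were lower and 1 was higher (16.5% of all genes). Against MUT 4 were lower untreated (21.2% of all genes called), and 2 were lower and 1 was higher treated (19.8%). In WT against EV the median log2 fold change of the list was -0.219 untreated and 0.0882 treated, where over all genes it was 0.00291 and -0.00334. In WT against MUT the list's median was -0.0221 untreated and -0.082 treated. UNC13D, the vesicle priming protein Munc13-4, was at 72.4 ± 0.321 CPM in untreated EV, 21.1 ± 0.216 in WT and 68.9 ± 0.812 in MUT (SD, n = 3 each). With cytarabine UNC13D was at 97.8 ± 1.11, 29.6 ± 2.11 and 89.9 ± 3.35 CPM in EV, WT and MUT (SD, n = 3 each). The fit gave a difference in WT against EV of log2 -1.78 untreated (SE 0.0625, edgeR adjusted p = 8.52e-13) and -1.72 treated (SE 0.0605, edgeR adjusted p = 8.14e-13). WT was thus its lowest line at either treatment, with no overlap. MLPH, melanophilin, which links RAB27A to myosin, was lower in treated WT by log2 -1.5 against EV (edgeR adjusted p = 0.00554) and -2.18 against MUT (edgeR adjusted p = 0.000148), at under 3.5 CPM in every library. SYTL5, a close relative of SYTL1, had another order. Treated SYTL5 was at 12 ± 0.749 CPM in EV, 4.41 ± 1.02 in WT and 6.13 ± 0.935 in MUT (SD, n = 3 each), and it was lower than in EV in both WT (log2 -1.44, edgeR adjusted p = 2.65e-05) and MUT (-0.97, edgeR adjusted p = 0.00141; 7.13% of all genes were called lower in that comparison).

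Among the paralemmin genes, 4 of 6 listed were tested, and in treated WT against EV 3 were higher, the opposite direction to PALM3 (7.41% of all genes were called higher). Untreated, 2 were higher, PALM and AKAP2 (4.3% of all genes). Against treated MUT 2 were higher and 1, PALM, was lower (9.48% of all genes were called higher and 10.4% lower). Against untreated MUT 3 were higher, where 21.2% of all genes were called in either direction. The calls on PALM2 and PALM2-AKAP2 there were lost in 4 and 5 of 26 alternative settings, and that on AKAP2 in 1. The list's median log2 fold change in treated WT against EV was 0.618. The 3 that were higher in treated WT than in EV are PALM2, PALM2-AKAP2 and AKAP2, which share a locus, so that their counts may be split between them. AKAP2, a kinase anchoring protein, was at 202 ± 20.3 CPM in treated EV, 288 ± 3.96 in WT and 208 ± 12.8 in MUT (SD, n = 3 each; log2 0.51 for WT against EV, edgeR adjusted p = 0.00364). Its untreated call (0.43, edgeR adjusted p = 0.0145) was lost without EV untreated replicate 1 (0.422) or 2 (0.425) or WT untreated replicate 3 (0.421). The call on PALM2 (log2 0.72, edgeR adjusted p = 0.019) was lost without EV cytarabine replicate 1 or 3 or WT cytarabine replicate 1 or 3 (0.613, 0.719, 0.714 and 0.632). Its call against treated MUT (0.67) was lost without any 1 MUT library or WT cytarabine replicate 1 or 3 (0.583 to 0.718, edgeR adjusted p up to 0.0983). The call on PALM2-AKAP2 (log2 0.81) was lost without any 1 of the 6 treated EV and WT libraries (0.702 to 0.882, edgeR adjusted p up to 0.124). DESeq2 (0.806) and limma on the authors' normalized table (0.776) lost it as well. PALM, the founding paralemmin, differed by log2 0.17 in treated WT against EV (SE 0.0909, edgeR adjusted p = 0.214).

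Of the interleukin 2 and interleukin 15 pathway, 13 of 15 listed genes were tested, and 2 were lower in WT than in EV with either treatment, STAT5A and SOCS3. Over all genes 7.36% were called lower untreated and 9.12% treated, and 11.7% and 16.5% in either direction. Against MUT both were lower too, with CISH in treated libraries, and SHC1 was higher. Over all genes 21.2% were called untreated and 19.8% treated in WT against MUT, in either direction. The untreated call of SOCS3 against MUT (log2 -0.38, edgeR adjusted p = 0.0105) was lost without MUT untreated replicate 1 (-0.3, edgeR adjusted p = 0.0502). A fit of only the 2 groups compared lost it too (-0.364, edgeR adjusted p = 0.0749). On the log2 scale the list's median was -0.265 untreated and -0.0284 treated in WT against EV, and -0.17 and -0.19 in WT against MUT. STAT5A, a transcription factor activated by the receptor, was at 15.4 ± 0.689 CPM in untreated EV, 7.04 ± 0.847 in WT and 20.2 ± 0.955 in MUT (SD, n = 3 each). WT differed from EV by log2 -1.13 untreated (SE 0.1, edgeR adjusted p = 2.83e-07) and -0.89 treated (SE 0.0967, edgeR adjusted p = 3.22e-06). Against MUT STAT5A differed by -1.52 and -1.15 (edgeR adjusted p = 2.84e-09 and 1.11e-07). SOCS3, an inhibitor of cytokine signalling, was lower in treated WT against EV by log2 -0.54 (SE 0.0975, edgeR adjusted p = 0.000776). IL2RG, the chain that pairs with IL2RB in the receptor, had a mean of at most 0.699 CPM in every group. Its log2 fold change in treated WT against EV was -1.31 (SE 0.568, edgeR adjusted p = 0.129). IL2 and IL2RA were not analysed here.

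Of 12 listed sodium channel genes 9 were tested, and with either treatment 1 was lower in WT than in EV, the neighbouring SCN4B, and 1 was higher, SCN2A. Over all genes 7.36% were lower and 4.3% higher untreated, and 9.12% and 7.41% treated. Against MUT 2 were higher and 1 was lower with either treatment, where 21.2% of all genes were called untreated and 19.8% treated. The treated call of SCN4A (log2 1.45) was lost without MUT cytarabine replicate 1 or 2 or WT cytarabine replicate 2 or 3 (1.11 to 1.56, edgeR adjusted p up to 0.171). The list's median log2 fold change against EV was -0.122 untreated and -0.105 treated. SCN2A encodes a pore-forming alpha subunit. Treated SCN2A was at 3.44 ± 0.712 CPM in EV, 8.58 ± 0.53 in WT and 2.37 ± 0.446 in MUT (SD, n = 3 each), with a log2 fold change of 1.31 in WT against EV (SE 0.239, edgeR adjusted p = 0.000847) and 1.85 against MUT (SE 0.246, edgeR adjusted p = 2.7e-05). WT thus held the highest SCN2A and the lowest SCN2B of the 3 lines (9.48% of all genes were called higher in treated WT than in MUT). The untreated call of SCN2A against EV (log2 1.18, edgeR adjusted p = 0.0176) was lost without EV untreated replicate 1 (0.932), WT untreated replicate 1 (1.05) or WT untreated replicate 3 (1.03), with an adjusted p of up to 0.102.

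**Figure D5:**
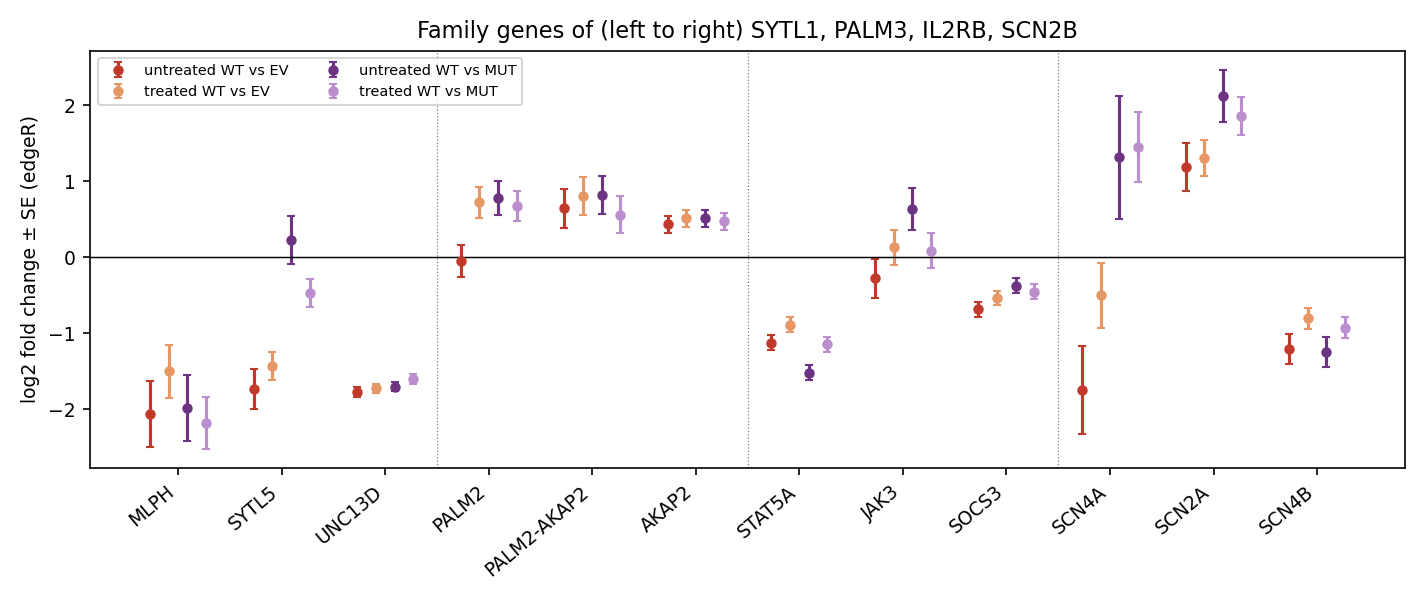
Log2 fold change ± SE of WT against EV and of WT against MUT, untreated and with cytarabine, for 3 genes of each family list. UNC13D, MLPH, STAT5A, SOCS3 and SCN4B lie below 0 in all 4 comparisons, SCN2A lies above 0 in all 4, and SCN4A, at few counts, lies below 0 against EV and above 0 against MUT.

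IL2RB and SCN2B are known best from other cell types, so markers of these were read beside them. Of the mesenchymal markers for the labelled osteosarcoma line, VIM was the most abundant, at 2060 ± 52.4 CPM in untreated EV (SD, n = 3). Of 9 listed markers 8 were read. Their summed level, most of it VIM, was 2250 to 2840 CPM in untreated and 1320 to 1600 CPM in treated libraries. The osteoblast markers SPP1 and BGLAP had means of at most 1.05 and 0.292 CPM in every group. Of 7 mesenchymal markers tested, 2 were lower (COL1A1 and ALPL) and 2 higher (COL1A2 and CDH2) in untreated WT than in EV. Over all tested genes 7.36% were called lower and 4.3% higher in that comparison. COL1A1 was at 177 ± 8.51 CPM in untreated EV and 63.4 ± 4.42 in WT (SD, n = 3 each; log2 -1.48, edgeR adjusted p = 9.59e-09), and COL1A2 at 0.458 ± 0.162 and 1.91 ± 0.468 (log2 2.05, edgeR adjusted p = 0.000384). The 6 lymphoid markers read summed to 1.52 to 3.21 CPM in untreated EV, 1.42 to 1.96 in WT and 3.46 to 5.14 in MUT, with 3 of the 6 at 0 in all untreated WT libraries. With cytarabine they summed to 5.49 to 7.58, 4.98 to 5.52 and 10.9 to 13.4 CPM. CD3D alone, the neighbour of SCN2B, was at 2.81 ± 0.937 CPM in untreated and 9.81 ± 1.49 in treated MUT (SD, n = 3 each). In EV it was at 0.756 ± 0.205 and 4.32 ± 0.834 CPM (SD, n = 3 each). No other tested lymphoid marker was called between MUT and EV. PTPRC, the general leukocyte marker, had a mean of at most 1.06 CPM in any group. The 6 neuronal markers summed to 24.3 to 28.1 CPM in untreated EV, 18.9 to 22.7 in WT and 12.5 to 14.5 in MUT. Their sum was thus lowest in MUT, whereas SCN2B was lowest in WT. The single neuronal markers did not share 1 order of lines. RBFOX3 was at 10.1 ± 1.12, 2.12 ± 0.489 and 1.27 ± 0.38 CPM in untreated EV, WT and MUT (SD, n = 3 each). SYP was at 7.92 ± 0.866, 10.6 ± 0.867 and 4.55 ± 0.883 CPM in the same order (SD, n = 3 each). The SNAP25 libraries overlapped between the lines, at 2.75 ± 0.16, 3.09 ± 0.804 and 3.56 ± 1.28 CPM (SD, n = 3 each). The 5 epithelial markers summed to 5.78 to 6.78 CPM in untreated EV, 3.02 to 3.92 in WT and 5.41 to 6.97 in MUT. They too differed in order. CDH1 stood low in both DNMT3A lines, at 2.25 ± 0.226, 0.515 ± 0.194 and 0.681 ± 0.208 CPM in untreated EV, WT and MUT (SD, n = 3 each). EPCAM was at 3.01 ± 0.331, 2.13 ± 0.284 and 3.23 ± 0.561 CPM, and KRT5 at 0.381 ± 0.262, 0.273 ± 0.189 and 1.03 ± 0.41 (SD, n = 3 each). The part of the markers in the levels of the 4 genes was not tested.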

How the data were processed

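Total RNA of 18 U2OS libraries in 6 groups of 3 was measured by sequencing. Per the submitters' processing notes, STAR 2.6.1d and CASAVA were used with hg38. The tool used for counting, and how it treated strand and multiply mapped reads, are not given in the sources used here. The authors deposited estimated counts per gene, not normalized, of which 70.4% were whole numbers. Their second deposited table holds a normalized signal for 19591 genes, equal to the estimated count times a factor per library, plus 1 (largest relative deviation 7.36e-06).

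Groups and replicate numbers come from the sample titles. Estimated counts were rounded and fitted with edgeR 4.0.16 (R 4.3.3): filterByExpr, TMM scaling, 1 quasi-likelihood fit with 6 group coefficients, Benjamini-Hochberg adjustment over 18226 genes, threshold 0.05. The standard error is the absolute log2 fold change over the square root of F. CPM uses TMM-scaled totals, and log2 CPM a prior count of 2. The same script was tested on simulated data. Replicates differed by more than sampling noise (chi-square per degree of freedom 2.45 to 46.8). P-values rest on the spread between cultures within a group, estimated over all 6 groups together. They do not measure the spread between lines, since each construct was in 1 line.

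The 4 genes and all gene lists were chosen with earlier results of these data known. Besides the 4 and DNMT3A, genes were named by rule. These were the 3 with the highest Pearson r to each and the 3 nearest tested genes on each side. Up to 3 changed genes of each family list were added, with those whose role is described. Of the markers, the 2 most abundant mesenchymal and lymphoid ones were named, with the mesenchymal ones called in untreated WT against EV. The neuronal and epithelial markers were given as sums. BGLAP, SPP1 and single neuronal and epithelial markers were added after their values were seen. Alternatives were RLE and upper-quartile scaling, no filter, a mean of at least 50 counts, DESeq2 1.42.0, a fit of only the compared groups, a replicate block, each library left out, and limma 3.58.1 on the authors' normalized table. Promoter windows are from RefSeq and exonic lengths from GENCODE. Fits for the genes outside the 4 under the alternatives were added after seeing the data.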

Additional observations from a re-analysis of the deposited data

Results flagged for a closer look

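In several cases every cytarabine library of one line lay above the untreated mean of its line on the log2 scale, and every one of another line lay below its own. These differences between changes were not tested, and no explanation was tested. For PALM3 the log2 change was 0.35 in EV and -0.595 in WT, a difference of 0.945. The WT change rests on 9 to 17 counts per library, so that counting error weighs on it. For IL27RA, the gene next to PALM3, it was 0.169 in WT against -0.0923 in EV (EV minus WT -0.261) and -0.141 in MUT (WT minus MUT 0.31). For RAC2, near IL2RB, it was 0.303 in EV and 0.583 in WT against -0.0341 in MUT. The differences were 0.337 for EV minus MUT and 0.617 for WT minus MUT. The treated MUT libraries of RAC2 lay close to their untreated mean, at -0.0439 to -0.00948 from it. The treated and untreated libraries themselves overlapped for RAC2 in MUT and for IL27RA in WT.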

How the results depend on the processing

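For the 4 genes in the treated comparisons, 311 of 312 alternative values kept direction and side of the threshold. The exception was PALM3 in treated MUT against EV, at -0.0636 without MUT cytarabine replicate 1 (-0.0636 to 0.213 over all libraries left out in turn). In the untreated comparisons 304 of 312 stayed within the spread, and 8 moved, all in the authors' normalized table (log2 -1.49 to -2.86), where 1 is added to each scaled count. That table also gave smaller treated differences, for PALM3 -2.5 against EV and -2.59 against MUT, for SCN2B -2.09 and -1.95, and for SYTL1 -1.85 and -3.01. Of 1990 alternative values for other genes, 1897 held, 93 lost their call and 0 changed direction.

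A fit of only the 2 groups compared called 5101 genes in untreated WT against EV (2125 with all groups), 1171 in untreated WT against MUT (3872), 935 in untreated MUT against EV (3632) and 6113 in treated WT against MUT (3616). Leaving out 1 library gave 1385 to 2973 genes in untreated WT against EV, 2784 to 4541 in untreated WT against MUT, 2253 to 4386 in untreated MUT against EV, 1776 to 4095 in treated WT against EV (3013 with all), 2313 to 4859 in treated WT against MUT and 1539 to 3695 in treated MUT against EV (2548 with all). Counts moved over 1.5 times without untreated EV or WT replicate 2 or 3, EV cytarabine replicate 3, WT cytarabine replicate 2, or MUT cytarabine replicate 1, 2 or 3; the cause was not tested.

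Replicate numbers did not pair the samples: over 45 pairs the correlation of deviations ran from -0.176 to 0.352, 7 were over 0.1, and in 16 of 45 combinations a library correlated best with its own number. A replicate block called 2063, 3820 and 3575 genes in untreated WT against EV, WT against MUT and MUT against EV, and 2984, 3607 and 2449 in the treated ones. By Spearman's rho 2 of the 12 most similar genes stayed. Counts of 3 to 9 limit SCN2B in untreated WT, and counts of 9 to 17 limit PALM3 in WT at either treatment.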
